A study of Mus musculus with 23 samples.

Results

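The genes of the translation initiation factors and of the eIF2 kinases were followed in the brown adipose tissue (BAT) of mice that differed in temperature and in the gene of the mitochondrial calcium uniporter, Mcu. The members were the rows of the table of normalized counts whose symbol begins with Eif and a digit from 1 to 6, without Eif2s3y on the Y chromosome. This gave 55 of the 14651 genes tested. Of these, 52 code for proteins and 3 are processed pseudogenes, and Eif4ebp3 was not analysed here.

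A ribosome starts on a messenger RNA in a fixed order of steps, each with its own factors. eIF2 carries the initiator transfer RNA to the small ribosomal subunit, eIF1 and eIF1A help that subunit to find the start codon, eIF3 is the large scaffold on which the subunit is loaded, and the eIF4 factors bind the cap of the messenger and unwind its leader. eIF2 is recharged with GTP by eIF2B, and the kinases Eif2ak1 (HRI), Eif2ak2 (PKR), Eif2ak3 (PERK) and Eif2ak4 (GCN2) block this exchange by phosphorylating the alpha subunit of eIF2, which lowers general translation and favours that of ATF4. The cap step has its own brake, since the 4E-BP proteins hold eIF4E until the kinase mTORC1 phosphorylates them. Brown fat makes heat through UCP1 when the animal is cold.

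All mice were C57BL/6 males of 8 to 12 weeks, and all carried the floxed Mcu alleles written as Mcu fl/fl. BAT-Mcu-KO mice (KO mice) also carried UCP1-Cre, in which the Ucp1 promoter limits the recombinase to brown adipocytes, so the other cells of the sampled tissue keep Mcu, while control mice had no Cre. There were 6 control and 6 KO mice at room temperature (RT), and 5 control and 6 KO mice after 6 h at 4°C. Mice at 4°C had no food unless stated otherwise and the labels do not give the food of the mice at RT. By the study's methods mice at 4°C were also housed singly without bedding, while mice were in general housed in groups. The effect of cold and those of lost food and of this housing cannot be told apart. In such bulk samples a change in the number of cells of a type and a change of RNA per cell also cannot be told apart.

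The libraries held between 7129271 and 21006347 reads, and the members took 0.333% to 0.457% of them. Mcu was lower in KO mice by 1.66 on the log2 scale at RT and by 1.61 at 4°C, with no overlap of the groups. All 7 brown adipocyte markers were above 3 reads in every mouse. Skeletal muscle markers, 9 genes, summed to between 13.7 and 45670 normalized counts per mouse, with medians of 1800 and 11060 in control mice at RT and 4°C and of 17810 and 3229 in KO mice. The sum of 4 endothelial markers was higher at 4°C, 4510 to 7201 against 2679 to 3818 in control mice. The sum of 2 white adipocyte markers was lower, 47.04 to 114 against 178 to 673. The part of these cells in the results was not tested, except that a fit with the muscle sum as a covariate, added after the data were seen, called 33 and 31 members by cold in control and KO mice.

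Cold moved many of the factors, and mostly upward. In control mice 27 of the 55 members were higher at 4°C than at RT and 6 were lower, at an adjusted p under 0.05 by limma with Benjamini-Hochberg adjustment over all genes. Among all 14651 genes 22.3% were higher and 23.7% were lower in that comparison. In KO mice 24 members were higher and 8 were lower, beside 21.4% and 21.9% of all genes. The median log2 fold change of the members was 0.28 in control and 0.29 in KO mice, against -0.02 over all genes in both. Most of these changes were small, and 6 members in control mice (10.9%) and 3 in KO mice (5.45%) were called with a change of 2-fold or more, beside 17.0% and 14.8% of all genes. Scaling each library to its 75th percentile moved the median of all genes to -0.13 and -0.07 and that of the members to 0.17 and 0.24, and gave 20 higher and 7 lower members in control mice and 19 and 8 in KO mice. The share of all called genes that were higher was then 38.2% in control mice, against 48.5%, and 44.1% in KO mice, against 49.4%. Quantile normalization gave members' medians of 0.19 and 0.23 beside -0.02 and -0.01 over all genes.

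In both genotypes 21 members were higher and 6 were lower, which is 27 of 55 where 34.8% of all genes were called in the same direction. No member was called in opposite directions. Of the 55 members 6 were called in control mice only and 5 in KO mice only, beside 1642 and 1256 of all 14651 genes. Calls in control mice without one in KO mice fell on Eif4b, Eif3f, Eif2b5, Eif3g, Eif2ak3 and Eif3j1, and the reverse on Eif1b, Eif3k, Eif3m, Eif2ak4 and Eif5. For none of these 11 genes, named after their values were seen, was the difference between the genotypes itself called.

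**Figure D1:**
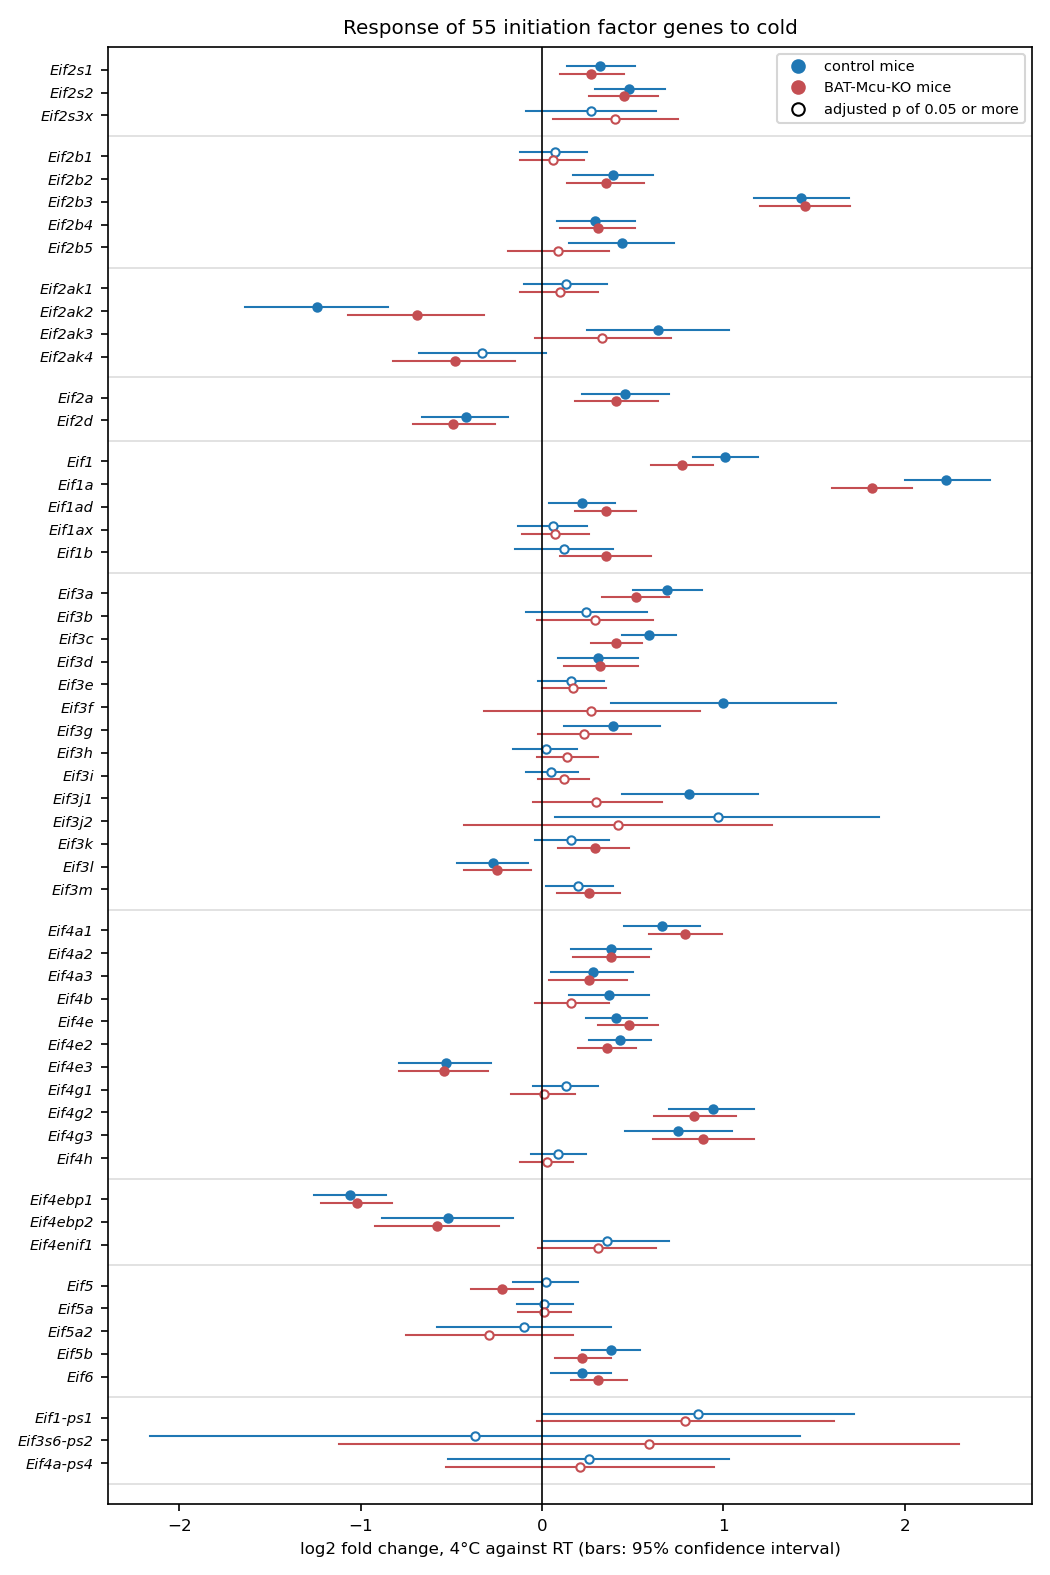
Log2 fold change from RT to 4°C of the 55 members, grouped from top to bottom as eIF2, eIF2B, eIF2 kinases, initiator tRNA factors, eIF1 and eIF1A, eIF3, eIF4, eIF4E binding proteins, eIF5 with eIF6, and pseudogenes. Points are limma estimates with 95% confidence intervals, blue for control mice (6 at RT, 5 at 4°C) and red for KO mice (6 and 6), and open points have an adjusted p of 0.05 or more. Eif1a lies farthest to the right at 2.23 and 1.82, and Eif2ak2 at -1.24 is the lowest point with a call.

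The promoters of the members were searched for the E-box, because this motif, the letters CACGTG, which read the same on both strands, is bound by MYC and by other factors that act on genes of protein synthesis. RefSeq promoters (GRCm38.p6, 250 bases before to 50 after the start) were matched for 42 members. Eif1-ps1, Eif1a, Eif2b3, Eif3e, Eif3h, Eif3i, Eif3j2, Eif3s6-ps2, Eif4a-ps4, Eif4e3, Eif4ebp1, Eif4g2 and Eif6 had no entry. Some genes have several RefSeq starts, and a gene counted once when any of its promoters held the motif. An E-box was found in 10 of the 42 (23.8%), against 11.6% of the 9982 tested genes with an entry and 7.15% of 32851 single promoters. The members with one were Eif1b, Eif3a, Eif3f, Eif3k, Eif4a1, Eif4e, Eif4g1, Eif4h, Eif5a and Eif5a2. Of these 10, 4 were called higher by cold in control mice and 5 in KO mice, beside 27 and 24 of all 55 members. Those 55 include the 13 members without an entry, so the sets are not alike. Among all genes 22.3% and 21.4% were called higher. The cyclic AMP response element TGACGTCA, the same on both strands, was in 0 of the 42, against 3.53% of tested genes and 1.79% of promoters. The core of the amino acid response element, TGATGNAA on either strand, was in the promoter of 1 member, Eif2s3x, against 2.74% of tested genes and 3.97% of promoters. CCAAT, searched on both strands, was in 15 (35.7%), against 42.2% and 37.4%. The search was chosen after the values were seen, and a match describes only the letters. Stretches of 100 bases upstream of a RefSeq start that hold the E-box, in capitals, are shown for 2 members that were higher in the cold in control mice, Eif3f and Eif4a1, and for Eif5a, which was not called, each 5′ to 3′ on the strand of its gene. They lie at chr7:108934300-108934399 (plus strand), chr11:69672560-69672659 (minus) and chr11:69921408-69921507 (minus), in this order. The stretch of Eif5a lies inside the annotated gene (69916714 to 69921958) but outside its exons, while those of Eif3f and Eif4a1 lie before their annotated genes.
Eif3f: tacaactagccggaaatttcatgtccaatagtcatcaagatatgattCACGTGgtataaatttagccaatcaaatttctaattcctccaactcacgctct
Eif4a1: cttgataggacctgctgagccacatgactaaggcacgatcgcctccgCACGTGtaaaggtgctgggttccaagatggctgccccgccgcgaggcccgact
Eif5a: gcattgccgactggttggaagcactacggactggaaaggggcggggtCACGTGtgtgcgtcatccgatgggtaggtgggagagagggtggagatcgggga

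Of the 3 subunit genes of eIF2 among the members, 2 rose in both genotypes and 1 did not pass the test. Among all 14651 genes 2533 were called higher in both genotypes. Eif2s1 (chromosome 12, 78861819 to 78887010) encodes the alpha subunit that the kinases phosphorylate. Its normalized count in control mice was 408, 508 and 564 (lowest, median and highest of 6) at RT and 629, 644, 680, 553 and 602 in the 5 mice at 4°C, so the groups overlapped by 1 cold mouse. The log2 fold change was 0.32 (standard error 0.09, adjusted p = 0.00411, limma with Benjamini-Hochberg adjustment) in control and 0.27 (standard error 0.08, adjusted p = 0.0116) in KO mice, the second lost under quantile normalization (0.20, adjusted p = 0.0516). Eif2s2, the beta subunit, rose from 260 to 338 at RT to between 407 and 450 at 4°C in control mice without overlap, by 0.48 on the log2 scale in control mice and 0.45 in KO mice. For Eif2s3x, the X-linked gamma subunit, the fold changes of 0.27 and 0.40 did not pass the test (adjusted p = 0.216 and 0.0538). The second passed, at an adjusted p of 0.0266 to 0.0437, without control 4°C replicate 3 or 4, KO RT replicate 2 or 5 or KO 4°C replicate 5, and under 4 other settings, with 0.52 under quantile normalization and 0.40 under a mean of 50 or more, a count of 8 or more in every mouse and limma without trend. The normalized count of Eif2s3x was 46.8, 54.4 and 62.3 in control mice at RT, against 64.7, 74.4, 94.6, 47.8 and 56.9 at 4°C, and these groups overlapped. Of the windows of 25 bases of its longest coding transcript 37.9% also occurred in another annotated transcript, mostly of Gm2223, and of those of Eif2s2 33.6%, mostly of Gm9892. A read pair that lies wholly in such stretches cannot be placed uniquely, how many pairs this touched was not tested, and levels of these genes are uncertain. Eif2s3y, the Y-linked gene of the gamma subunit that was left out of the members, had far higher counts than Eif2s3x. Its mean was 1099 in control mice at RT and 950 at 4°C, against 54.7 and 67.7 for Eif2s3x. By cold Eif2s3y fell by 0.21 in control mice (adjusted p = 0.0312, limma) and had -0.09 in KO mice without a call.

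The exchange factor eIF2B did not change as a unit. Eif2b3, the gamma subunit of its catalytic part (chromosome 4, 117019402 to 117087306), had a normalized count of 157, 196 and 243 (lowest, median, highest) in control mice at RT, and of 597, 439, 494, 532 and 598 in the 5 cold control mice. In KO mice it went from 166, 206 and 227 at RT to 470, 514 and 675 at 4°C. Every cold mouse was thus above every mouse at RT, in both genotypes. The rise was 2.70-fold in control mice (log2 fold change 1.43, standard error 0.13, adjusted p = 1.37e-09, limma) and 2.74-fold in KO mice (1.45, standard error 0.12, adjusted p = 5.17e-10). The other subunits moved far less. Eif2b1, the alpha subunit through which phosphorylated eIF2 is sensed, was 560 ± 75.6 at RT (SD, n = 6) and 583 ± 27.7 at 4°C (n = 5) in control mice, with a 95% interval of the log2 difference from -0.12 to 0.25. Eif2b2 (beta) rose by 0.39 and 0.35 on the log2 scale in control and KO mice, and Eif2b4 (delta) by 0.29 and 0.31. Without control RT replicate 4 or control 4°C replicate 5 the value of Eif2b4 in control mice was 0.23 or 0.25 and did not pass, and neither did it under quantile normalization or 75th percentile scaling (0.19 each), nor that of KO mice under the former (0.23). Eif2b5, the catalytic epsilon subunit, rose by 0.44 in control mice (adjusted p = 0.0134), while its value of 0.09 in KO mice did not pass (interval -0.19 to 0.37). The call in control mice was lost under 75th percentile scaling (0.33, adjusted p = 0.0621). Within a mouse the ratio of Eif2b3 to Eif2b1 counts went from a median of 0.354 at RT to 0.914 at 4°C in control mice, and from 0.351 to 0.856 in KO mice.

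**Figure D2:**
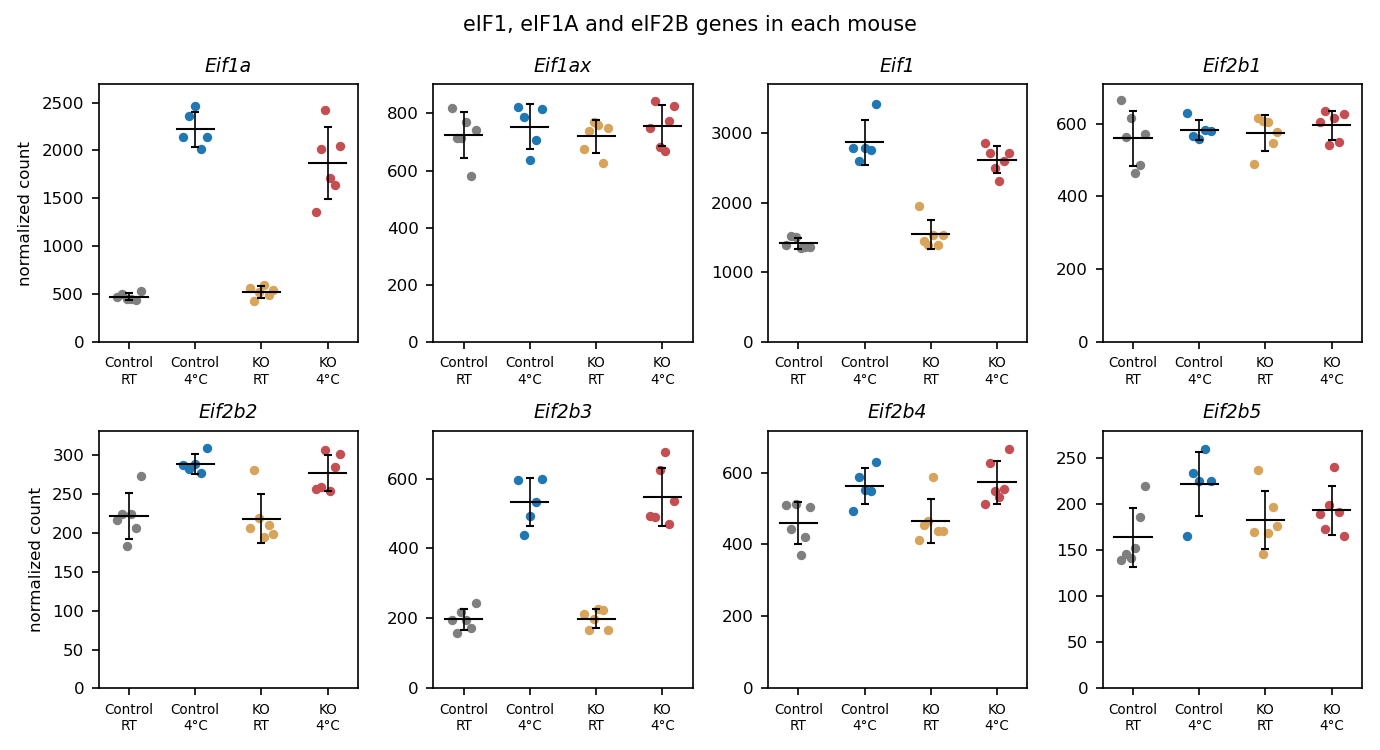
Normalized count of Eif1a, Eif1ax, Eif1 and the 5 eIF2B subunit genes in each mouse (points), with the group mean and SD (black), for control and KO mice at RT and 4°C. All axes start at 0. Eif1a, Eif1 and Eif2b3 separate RT from 4°C in both genotypes, with Eif2b3 going from means of 197 and 199 to 532 and 548, while Eif1ax and Eif2b1 overlap in all 4 groups.

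Among the 4 eIF2 kinases the gene of PKR, which is activated by double-stranded RNA, fell in both genotypes. Eif2ak2 (PKR; chromosome 17, 78852564 to 78882573) had a normalized count of 105, 125 and 135 (lowest, median, highest) in control mice at RT, while those at 4°C had 80.9, 69.8, 38.6, 36.0 and 45.7. No control mouse at 4°C reached the lowest at RT. The log2 fold change was -1.24 (standard error 0.19, adjusted p = 7.55e-06, limma with Benjamini-Hochberg adjustment). In KO mice Eif2ak2 was 79.6, 109 and 116 at RT, against 45.6, 62.3 and 81.4 at 4°C, a fall by 0.69 on the log2 scale (standard error 0.18, adjusted p = 0.00305) with a slight overlap of the groups. The fall differed between the genotypes by 0.55 (interval 0.01 to 1.09), which did not pass the test (adjusted p = 0.831).

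None of the other 3 kinase genes was called in both genotypes, where 34.8% of all genes were called in the same direction in both. Eif2ak3 (PERK), which responds to unfolded protein in the endoplasmic reticulum, was 40.3, 56.0 and 72.5 in control mice at RT, against 82.9, 102, 66.0, 104 and 82.6 at 4°C, with 1 cold mouse inside the range at RT. It rose by 0.64 on the log2 scale (standard error 0.19, adjusted p = 0.00759). In KO mice its range went from 41.3 to 84.6 at RT to 59.1 to 88.7 at 4°C, and the value of 0.33 (standard error 0.18) did not pass (adjusted p = 0.142). Eif2ak4 (GCN2), the sensor of uncharged transfer RNA, had -0.33 in control mice (adjusted p = 0.116) and fell by 0.48 in KO mice (standard error 0.16, adjusted p = 0.0169), from 116 to 165 at RT to 85.0 to 126 at 4°C. Without control RT replicate 6 the value in control mice was -0.47 and passed (adjusted p = 0.0116), as did that under 75th percentile scaling (-0.44, adjusted p = 0.0337). Eif2ak1 (HRI), which responds to lack of haem and to a signal from stressed mitochondria, was 501 ± 79.1 at RT and 545 ± 46.2 at 4°C in control mice, and its values of 0.13 and 0.10 by cold did not pass (intervals -0.10 to 0.36 and -0.12 to 0.31). Per kb of exon it was the most abundant kinase gene in control mice at RT, with a mean level of 88.3 normalized counts and at least 72.5 in each mouse, against means of 24.2 for Eif2ak2, 19.8 for Eif2ak4 and 9.30 for Eif2ak3. The ranges of Eif2ak2 and Eif2ak4 overlapped, as did those of Eif2ak4 and Eif2ak3. At 4°C the means in control mice were 96.2 for Eif2ak1, 10.6 for Eif2ak2, 15.5 for Eif2ak4 and 14.5 for Eif2ak3.

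**Figure D3:**
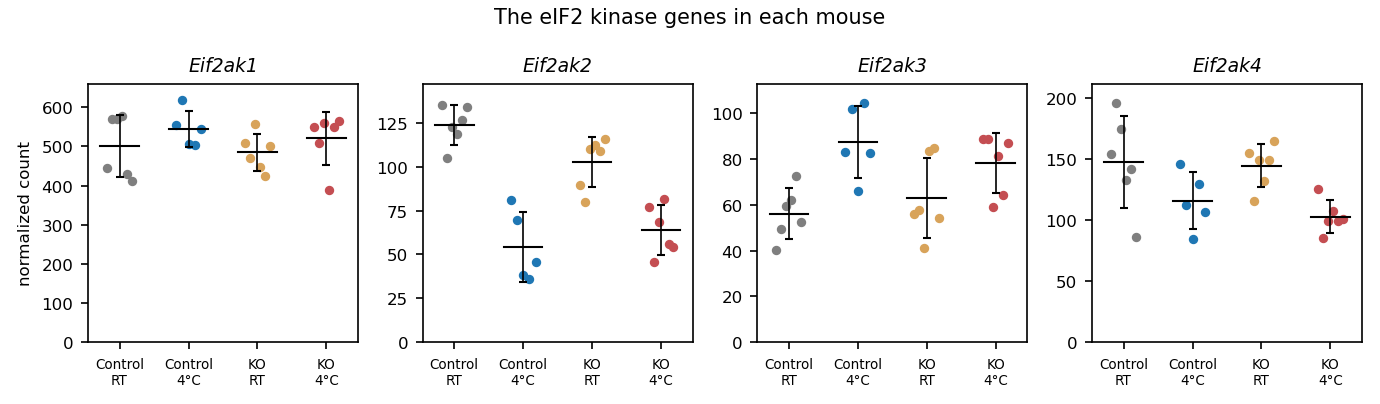
Normalized count of the 4 eIF2 kinase genes in each mouse (points), with the group mean and SD (black), for control and KO mice at RT and 4°C. Axes start at 0. Eif2ak2 falls from a mean of 124 to 54.2 in control mice, and Eif2ak1 stays between means of 485 and 545.

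The largest rise of any member was in a gene for eIF1A. Mice have Eif1ax on the X chromosome (159372178 to 159389928) and Eif1a on chromosome 18 (46597701 to 46616456), both coding for eIF1A. Eif1a had a normalized count of 441, 459 and 530 (lowest, median, highest) in control mice at RT, while at 4°C it was 2140, 2361, 2459, 2011 and 2135. In KO mice it went from 424, 528 and 590 to 1357, 1863 and 2424. The ranges at RT and 4°C were far apart in both genotypes. The rise was 4.70-fold in control mice (log2 fold change 2.23, standard error 0.11, adjusted p = 1.39e-13, limma) and 3.54-fold in KO mice (1.82, standard error 0.11, adjusted p = 1.53e-12). The difference of -0.41 between these (interval -0.73 to -0.09, unadjusted p = 0.0143 in the limma fit) did not pass over all genes (adjusted p = 0.78). Eif1ax did not follow it. It was 724 ± 80.2 at RT and 753 ± 79.2 at 4°C in control mice and 720 ± 56.8 and 758 ± 71.7 in KO mice, with intervals of the log2 change from -0.13 to 0.25 and from -0.11 to 0.26. Within each mouse the ratio of Eif1a to Eif1ax counts was 0.575 to 0.759 in control mice at RT and 2.61 to 3.85 at 4°C, and 0.574 to 0.831 and 1.82 to 3.54 in KO mice. Per kb of exon the means of Eif1a and Eif1ax in control mice were 113 and 137 at RT and 533 and 143 at 4°C. Per kb of the longest coding transcript the order at RT turned, with 165 for Eif1a and 140 for Eif1ax.

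Eif1, whose protein guards the choice of start codon next to eIF1A, rose in both genotypes. Its normalized count in control mice was 1344, 1379 and 1526 at RT, against 2781, 2594, 2779, 2747 and 3414 at 4°C, with no overlap. The fold change was 2.02 in control (log2 1.01, standard error 0.09, adjusted p = 8.15e-10) and 1.70 in KO mice (0.77, standard error 0.08, adjusted p = 4.1e-08, limma). Of its windows of 25 bases 39.0% occurred elsewhere, mostly in Emd. Eif1ad, named for its domain shared with eIF1A, rose by 0.35 in KO mice and by 0.22 in control mice (adjusted p = 0.0385), a call lost without any of 8 single mice (0.17 to 0.23), under quantile normalization (0.12) and 75th percentile scaling (0.11) and when only the compared groups were fitted (0.22). Eif1b, a close relative of Eif1, had 0.12 in control mice without a call and rose by 0.35 in KO mice, a call lost without KO RT replicate 2 or 5 or KO 4°C replicate 2 (0.28 to 0.31) and under 75th percentile scaling (0.30, adjusted p = 0.0553).

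The 14 genes of eIF3 gave 6 that were higher and 1 that was lower in control mice, and 5 and 1 in KO mice. Among all genes 22.3% were higher and 23.7% lower in control mice, and 21.4% and 21.9% in KO mice. Eif3a and Eif3c, core subunits of the complex, rose in both genotypes. Eif3a was 1038, 1131 and 1242 in control mice at RT, against 2005, 1639, 1746, 1983 and 1790 at 4°C, a log2 fold change of 0.69 (standard error 0.09, adjusted p = 1.49e-06, limma), with 0.52 in KO mice. Eif3c was 1235, 1352 and 1470 in control mice at RT, against 2019, 1943, 2241, 1969 and 2066 at 4°C, with 0.59 (standard error 0.07, adjusted p = 3.89e-07) and 0.41 in KO mice. Neither gene's groups overlapped in control mice. Quantile normalization lowered the KO values to 0.33 and 0.24, both still called.

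Eif3f, a core subunit of the MPN family, varied widely between mice of 1 group. In control mice it was 357, 421 and 624 at RT, against 441, 713, 1176, 1023 and 1416 at 4°C, and the groups overlapped. Its log2 fold change was 1.00 (standard error 0.30, adjusted p = 0.00833, limma). KO mice had 420, 499 and 1275 at RT, while the cold KO mice had 315, 768 and 1046, and the value of 0.27 had an interval from -0.32 to 0.87. Without KO RT replicate 1, at 1275, the highest value in that group was 557 and the value by cold was 0.51 (adjusted p = 0.133). It was 0.50 without KO 4°C replicate 6 and 0.15 without KO 4°C replicate 4, and it did not pass without any KO mouse.

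Eif3j1, a loosely bound subunit near the messenger channel, rose by 0.81 in control mice (standard error 0.18, adjusted p = 0.000644), from 27.2 to 64.2 at RT to 80.9, 62.2, 68.5, 65.4 and 69.8 at 4°C. It had 0.30 in KO mice without a call, and 0.45 with one under quantile normalization (adjusted p = 0.0398). Eif3j2 is a near copy that shares 95.1% of its windows with Eif3j1, and at 2.02 to 19.8 normalized counts in control mice its values of 0.97 and 0.42 did not pass. Without control 4°C replicate 1 or control RT replicate 5 the first was 1.46 or 1.11 and passed, as it did by DESeq2 (1.31) and edgeR (1.28), under quantile normalization (1.22) and with a pseudocount of 10 (0.54). Eif3j1 in turn shares 58.6% of its windows with other transcripts, and 41.55% with Eif3j2, so its level is also uncertain. Of the exon bases of Eif3j1 20.2% overlap other genes, mainly Spg11, and of Eif3d 43.3% overlap Gm17638. Eif3d, a cap-binding subunit, rose by 0.31 and 0.32 (without control 4°C replicate 4 the first was 0.28, adjusted p = 0.0508, and under quantile normalization or 75th percentile scaling it was 0.20 and did not pass). Eif3g rose in control mice by 0.39 (without control 4°C replicate 5, 0.32, adjusted p = 0.0582) and had 0.23 in KO mice. Under quantile normalization and 75th percentile scaling the control value of Eif3g was 0.29 and 0.28 and did not pass.

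Eif3l fell by 0.27 and 0.25 on the log2 scale, from 2069 ± 318 to 1703 ± 167 in control mice. The call in control mice was lost without RT replicate 1 or 4°C replicate 4 (-0.22 to -0.21) and when only the compared groups were fitted (-0.27, adjusted p = 0.0629). In KO mice it was lost without RT replicate 1, 5 or 6 or 4°C replicate 1 or 3 (-0.23 to -0.21). Quantile normalization gave -0.46 and -0.43. Eif3k and Eif3m rose in KO mice by 0.29 and 0.26, and their values of 0.16 and 0.20 in control mice did not pass, except for Eif3k without control RT replicate 6 or 4°C replicate 2 and for Eif3m without control RT replicate 1 or 6 or 4°C replicate 4. Both KO calls were lost under other scalings, with 0.18 for each gene under quantile normalization (adjusted p = 0.117 and 0.0796) and 0.24 and 0.21 under 75th percentile scaling (adjusted p = 0.0501 and 0.0546). Of the windows of Eif3m 64.6% occur elsewhere, mostly in Gm7658. Eif3b, Eif3e, Eif3h and Eif3i, with values of 0.02 to 0.29 in both genotypes, did not pass in either.

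In the cap complex the scaffolds of the eIF4G family parted. Eif4g2 (chromosome 7, 111067750 to 111083030) codes for a relative of eIF4G that lacks the part that binds eIF4E. It was 2351, 3690 and 4015 in control mice at RT, against 6220, 6201, 6458, 6714 and 6698 at 4°C. KO mice had 3076, 3322 and 4757 at RT, while the cold KO mice had 6200, 6332 and 6567. Both sets of cold mice lay within a narrow band above all mice at RT. The rise was 1.91-fold and 1.79-fold (log2 0.94, standard error 0.12, adjusted p = 3.22e-07, and 0.84, standard error 0.11, adjusted p = 8.1e-07, limma). Eif4g3, a cap-dependent scaffold, rose by 0.75 and 0.89, from 134 to 210 at RT to 247 to 343 at 4°C in control mice. Eif4g1, the main cap-dependent scaffold, was 1616 ± 191 at RT and 1768 ± 159 at 4°C in control mice and 1624 ± 137 and 1631 ± 131 in KO mice, with intervals from -0.05 to 0.31 and from -0.17 to 0.18.

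All 3 genes of the eIF4A helicases rose in both genotypes, beside 2533 of all 14651 genes called higher in both. Eif4a1 went up by 0.66 (standard error 0.10, adjusted p = 6.99e-06, limma) and 0.79 and Eif4a2 by 0.38 in both genotypes (0.25 in both under quantile normalization, still called). Eif4a1 is read with caution, since 68.1% of its windows occur in other transcripts, mostly its pseudogene Eif4a-ps4. For Eif4a2 this share was 24.7% and for Eif4a3 51.8%, the latter mostly with Gm5580. Eif4a3, whose protein sits in the exon junction complex, rose by 0.28 and 0.26 at adjusted p = 0.039 and 0.0494, calls that were lost without any of 6 and 16 single mice (0.18 to 0.28 and 0.22 to 0.27). Both were also lost under quantile normalization (0.17 and 0.17), 75th percentile scaling (0.17 and 0.20) and limma without trend (0.28 and 0.26), the first also by edgeR (0.26) and with only the compared groups (0.28), and the second with the muscle covariate (0.25). Eif4b, a helper of the helicase, rose by 0.37 in control mice and had 0.16 in KO mice. Under quantile normalization its values were 0.18 (adjusted p = 0.176) and -0.01, and neither passed. Eif4h, another helper, was 2613 ± 239 and 2789 ± 249 in control mice at RT and 4°C and did not pass.

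Of the cap-binding genes Eif4e and Eif4e2 rose while Eif4e3 and both 4E-BP genes fell. Eif4e, which binds the cap, was 347, 385 and 436 in control mice at RT, against 496, 510, 573, 465 and 521 at 4°C, a log2 fold change of 0.41 (standard error 0.08, adjusted p = 0.000243, limma), and 0.48 in KO mice. Eif4e2, a cap-binding relative that represses translation, rose by 0.43 and 0.36. Eif4e3, another cap-binding protein, fell by 0.53 and 0.54, from 1192 to 1534 at RT to 731 to 1228 at 4°C in control mice, with an overlap.

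Eif4ebp1 (chromosome 8, 27260329 to 27276674), which codes for the inhibitor 4E-BP1, was the member with the highest level per kb of exon in control mice at RT, a mean of 1710 normalized counts, beside 1440 for Eif5a, and their ranges overlapped. Per kb of the longest coding transcript the order turned, with 1880 for Eif4ebp1 and 2390 for Eif5a. Its normalized count was 3250, 3688 and 4261 in control mice at RT, against 2128, 1721, 1928, 1696 and 1507 at 4°C. KO mice had 3008, 3763 and 4198 at RT, while the cold KO mice had 1651, 1807 and 1894. No cold mouse of either genotype reached the lowest mouse at RT. The fold change was 0.479 in control mice (log2 -1.06, standard error 0.10, adjusted p = 2.82e-09, limma) and 0.492 in KO mice (log2 -1.02, standard error 0.09, adjusted p = 2.43e-09). Within a mouse the ratio of Eif4ebp1 to Eif4e counts was 8.22 to 11.2 in control mice at RT and 2.89 to 4.29 at 4°C, and 8.20 to 11.0 and 3.07 to 3.79 in KO mice.

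Eif4ebp2, the gene of 4E-BP2, fell by 0.52 in control mice (standard error 0.17, adjusted p = 0.0165), with 163, 205 and 275 at RT and 91.0, 165, 142, 213 and 146 at 4°C. Without control 4°C replicate 1, the mouse at 91.0, the value was -0.35 and no longer passed (adjusted p = 0.078). In KO mice it fell by 0.58 (standard error 0.17, adjusted p = 0.00642), from 173 to 282 at RT to 116 to 172 at 4°C. Eif4enif1, which codes for the eIF4E transporter, had 0.36 and 0.31 without a call. DESeq2 called the control value (0.41), leaving out control 4°C replicate 1 gave 0.51 (adjusted p = 0.011), and in KO mice leaving out RT replicate 5 gave 0.40 (adjusted p = 0.0461).

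**Figure D4:**
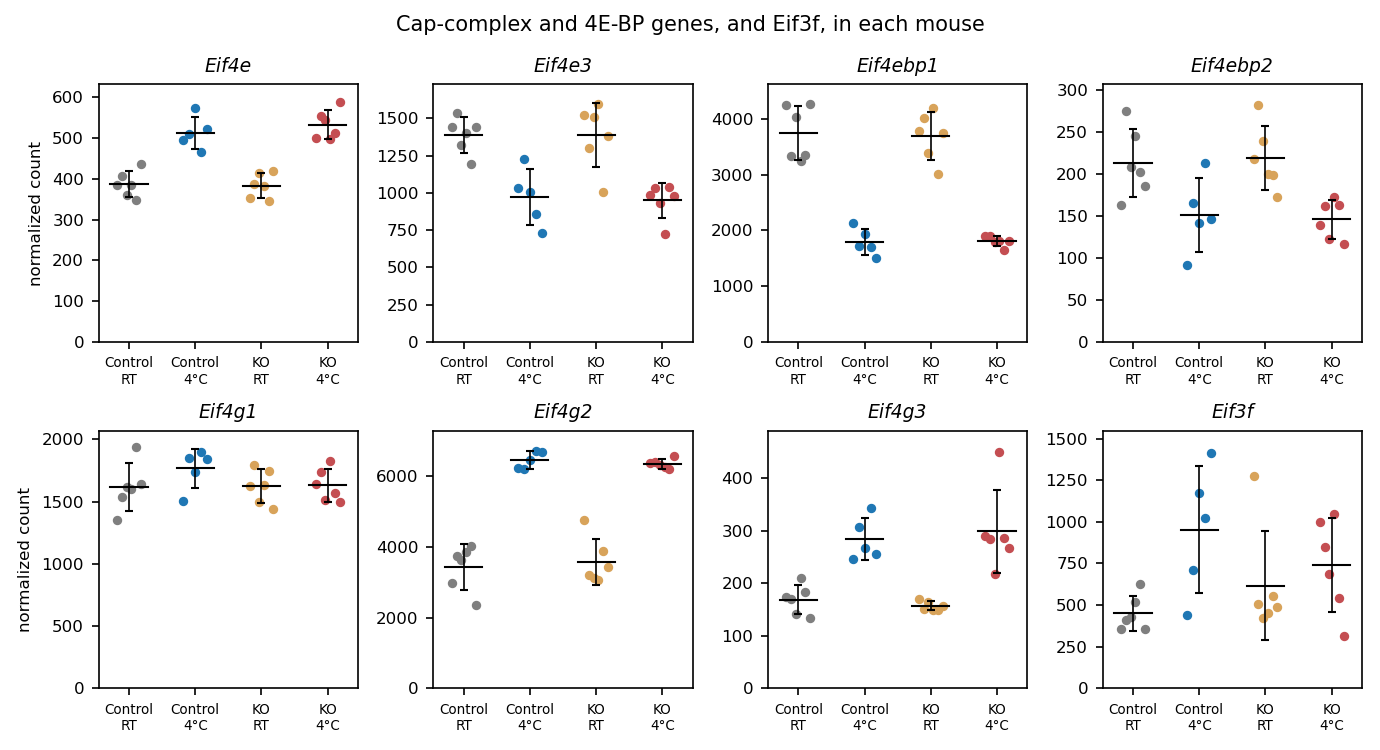
Normalized count of 7 genes of the cap complex and its inhibitors and of Eif3f in each mouse (points), with the group mean and SD (black), for control and KO mice at RT and 4°C. Axes start at 0. Eif4ebp1 falls from means of 3748 and 3690 to 1796 and 1806 while Eif4e and Eif4g2 rise, and Eif3f spreads from 315 to 1416.

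Of the 5 genes of eIF5, eIF5B, eIF5A and eIF6, 2 were higher and 0 lower in control mice, and 2 and 1 in KO mice. Among all genes 22.3% were higher and 23.7% lower in control mice, and 21.4% and 21.9% in KO mice. The values of the 5 ran from -0.10 to 0.38 in control mice and from -0.29 to 0.31 in KO mice. Eif5, the GTPase activator of eIF2, was 1988 ± 172 at RT and 2028 ± 305 at 4°C in control mice. In KO mice it fell by 0.22 (adjusted p = 0.0371, limma), from 1835 to 2302 at RT to 1517 to 1789 at 4°C, a call lost without RT replicate 4 or 6 or 4°C replicate 1, 2, 3 or 4 (-0.22 to -0.18). The call was also lost with the replicate block (-0.22, adjusted p = 0.0562) and in limma without trend (-0.22, adjusted p = 0.0575), while quantile normalization gave -0.41 with a call. Eif5b, which joins the large subunit, rose by 0.38 (standard error 0.08, adjusted p = 0.000272) and 0.22, the second lost without KO RT replicate 3 (0.18, adjusted p = 0.0573), under quantile normalization (0.14) and under 75th percentile scaling (0.17). Eif6, which keeps free large subunits apart, rose by 0.22 and 0.31, the first lost without control RT replicate 5 or 4°C replicate 2, 4 or 5 (0.18 to 0.21), under quantile normalization (0.12) and 75th percentile scaling (0.11) and with only the compared groups (0.22). Eif5a, a factor with hypusine that acts in elongation, was among the most abundant at 3431 ± 300 and 3456 ± 110 in control mice, with an interval from -0.14 to 0.17. Its paralog Eif5a2 was between 26.4 and 66.9 in all mice and did not pass.

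Eif2a and Eif2d code for single proteins that can place an initiator or other transfer RNA without eIF2. Eif2a rose by 0.46 (standard error 0.12, adjusted p = 0.00204, limma) and 0.41, and Eif2d fell by 0.42 (standard error 0.11, adjusted p = 0.0037) and 0.49. Eif2d was 278, 346 and 381 in control mice at RT, against 235, 281, 204, 259 and 277 at 4°C, with 1 cold mouse inside the range at RT. The pseudogenes Eif1-ps1, Eif3s6-ps2 and Eif4a-ps4 stayed at or below 22.25 normalized counts in every mouse, and their values did not pass, except that Eif1-ps1 had 1.10 (adjusted p = 0.0408) without control 4°C replicate 3 and 0.79 (adjusted p = 0.0488) in KO mice when only the compared groups were fitted. They share 55.9%, 42.5% and 97.9% of their windows with Eif1, Eif3e and Eif4a1.

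**Figure D5:**
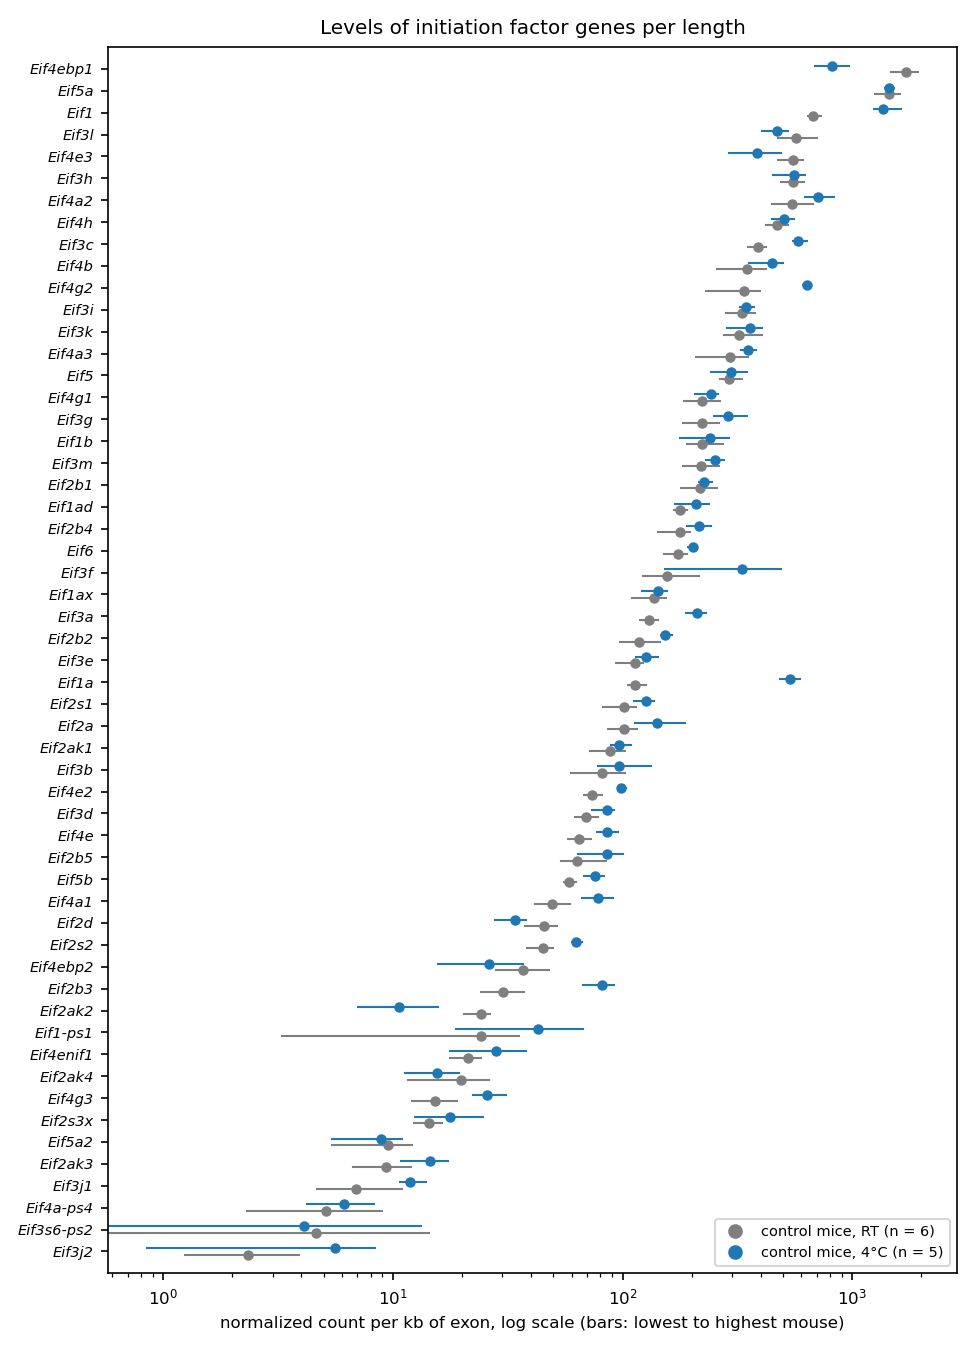
Normalized count per kb of exon (log scale) of the 55 members in control mice at RT (grey, n = 6) and 4°C (blue, n = 5), ordered by the mean at RT, with points for means and bars from the lowest to the highest mouse. The bar of Eif3s6-ps2 reaches 0, beyond the axis. Eif4ebp1 heads the order at RT with 1710 and lies at 818 at 4°C, and Eif1a moves from 113 to 533.

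No member was called by genotype. KO mice differed from control mice in UCP1-Cre as well as in Mcu, so the effect of the transgene and that of lost Mcu cannot be told apart. At RT 0 of the 55 were called between KO and control mice and at 4°C 0 of 55, by limma, where 0.0478% and 0.0751% of all genes were called, and edgeR and DESeq2 on the recovered reads also gave 0. At an unadjusted p under 0.05 there were 2 members at RT, Eif1ad and Eif6, and 2 at 4°C, Eif5 and Eif1a, which is 3.64% of the members each time beside 5.15% and 6.98% of all genes. Over the 52 coding members the log2 differences at RT ran from -0.27 to 0.37, and those at 4°C from -0.36 to 0.28. The 95% interval lay within 0.5 of 0 on the log2 scale for 47 of them at RT and for 43 at 4°C, and the outermost bounds, those of Eif3j2, were 1.21 and -1.08.

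The members with the smallest unadjusted p at RT were Eif1ad (-0.21, interval -0.38 to -0.04), Eif6 (-0.16) and Eif4b (0.19, interval -0.02 to 0.40), all at an adjusted p of 0.94 or more. At 4°C they were Eif5 (-0.23, interval -0.41 to -0.05, adjusted p = 0.591), Eif1a (-0.27, interval -0.50 to -0.04, adjusted p = 0.645) and Eif3c (-0.14, adjusted p = 0.741). Eif1a in the cold was 2011 to 2459 in control and 1357 to 2424 in KO mice. The interaction of genotype and temperature was called for 0 members, beside 0.0% of all genes, with 2 members (3.64%, beside 5.99% of all genes) at an unadjusted p under 0.05, Eif1a and Eif2ak2, and no call by edgeR or DESeq2. Eif1 came next, with a difference of -0.24 between its changes by cold (interval -0.49 to 0.0032).

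The pathways next to the members were read from a list of 56 genes. By cold 24 of them were higher and 9 lower in control mice and 26 and 10 in KO mice, with 22 higher and 8 lower in both. Among all genes 22.3% were higher and 23.7% lower in control mice, and 21.4% and 21.9% in KO mice. The share of all genes called in the same direction in both was 34.8%. The counts of the smaller lists below stand beside the same shares. Among the 9 genes of the eIF2 phosphatase and of the targets of phosphorylated eIF2, 6 were higher and 1 was lower in control mice, and 5 and 1 in KO mice. Ppp1r15a (GADD34), the inducible partner of the phosphatase that reverses the kinases, was 60.1, 102 and 138 in control mice at RT, against 761, 329, 416, 367 and 380 at 4°C, a log2 fold change of 2.08 (standard error 0.25, adjusted p = 1.62e-07, limma), and 2.36 in KO mice. Ppp1r15b, its constitutive counterpart, rose by 0.75 and 0.65.

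Atf4, whose messenger is translated when eIF2 is phosphorylated, went from 536, 620 and 695 at RT to 2977, 3015, 2769, 3071 and 3128 at 4°C in control mice (log2 2.3, adjusted p = 3.89e-14) and rose by 1.88 in KO mice, where it was lower at 4°C than in control mice by 0.66 (adjusted p = 0.0151, a call lost when only the compared groups were fitted). Its relative Atf5 rose by 1.66 and 0.90, while Ddit3 (CHOP), a target of ATF4, had 0.15 and -0.23 without a call. Impact, an inhibitor of GCN2, rose by 1.57 and 1.35, from 272 to 360 at RT to between 684 and 1347 at 4°C in control mice. Of the 8 regulators of the kinases 3 were higher and 2 lower in control mice.

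Among 10 genes of cap-binding control 2 were higher and 3 lower in control mice. Pdcd4, which blocks the helicase eIF4A, fell by 1.88 (adjusted p = 1.11e-10) and 1.79, from 314 to 446 at RT to 82.6 to 122 at 4°C in control mice. Of 11 genes of elongation and release 3 were higher and 1 was lower, the latter Eef2k, whose kinase slows elongation, which fell by 1.96 (adjusted p = 1.23e-08) and 1.56, from 110 to 157 at RT to 16.2 to 42.5 at 4°C. Of 10 genes of mTORC1 6 were higher and 1 was lower, and of 8 other initiation and recycling factors 4 and 1.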

How the data were processed

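BAT RNA of 23 mice, in 4 groups taken from the labels, was sequenced with Smart-seq2 libraries read in paired 25-base reads. The authors aligned the reads with STAR (2.4.0j) to mm10 (GENCODE M7) and counted unique reads in exons with HTSeq, irrespective of strand, so overlapping genes cannot be separated by strand. The signal deposited by the authors is the normalized count, reads divided by the DESeq2 size factor of the sample, kept for genes that reached 8 reads in 6 or more samples. All normalized counts came out as whole reads (100.0% within 0.01 of a read), and these were recovered. A second deposited table holds the authors' fold changes and p-values for genotype and temperature and was not used.

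Log2(normalized count + 1) was fitted with limma (3.58.1, R 4.3.3) with 4 group means over all 23 mice and a variance trend, and p-values were adjusted by the Benjamini-Hochberg method over 14651 genes, with calls under 0.05. Fold changes are on this scale and understate those of low genes. Reads from PCR copies are not independent, so read numbers give counting error only. The code was tested on simulated data.

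Alternatives were pseudocounts of 0.5 and 10, a mean of 50 or more, 8 or more in every sample, quantile normalization, 75th percentile scaling, no trend, only the compared groups, a replicate block, DESeq2 (1.42.0) and edgeR (4.0.16) on the recovered reads, and each mouse left out. Positions come from GENCODE M21 (GRCm38). The members, the lists, the pathway genes and the motifs were chosen with earlier results of these data known. Values were given for the kinases, the 4E-BP genes, eIF2, Eif1a, Eif1ax, the 8 called members with the largest change by cold in control mice, the 3 with the smallest p in each comparison by genotype and the 6 listed pathway genes that changed most with Atf4, Ddit3, Ppp1r15a and Ppp1r15b. Outside this rule, values of single mice were given for Eif3a, Eif4e and Eif2d, and group means or ranges for further members.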

Additional observations from a re-analysis of the deposited data

Results flagged for a closer look

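In 21 members and 4 groups, 84 sets of 5 or 6 mice, 6 held a mouse set apart from the others of its group by Dixon's criterion, where chance flags about 1 in 20, or 4.2. KO RT replicate 1 was high for Eif1 at 1955 and for Eif3f at 1275. KO 4°C replicate 4 was low for Eif2ak1 at 389.7 and for Eif5 at 1517. Control 4°C replicate 5 was high for Eif1 at 3414, and KO RT replicate 6 was high for Eif3c at 1533. All are normalized counts.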

How the results depend on the processing

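With the replicate block 33 and 31 members were called by cold in control and KO mice, against 33 and 32 without it, and 0 by genotype. Mice with the same number had a mean correlation of -0.095 to 0.121. In no comparison was every pair over 0.1, so the numbers were not taken to pair the mice, though at 4°C all 5 control and KO pairs were positive (0.0416 to 0.218) and 2 of the 5 were over 0.1. Under the other alternatives 27 to 35 and 27 to 33 members were called, and 28 to 36 and 29 to 32 without 1 mouse each, with 0 by genotype throughout. Of 80 called values none changed direction, and 36 of 960 values under other settings and 56 of 1840 without 1 mouse no longer passed. Changes of sign were limited to values that had not passed, and the cause was not tested. Under quantile normalization these were, in control mice, Eif4h -0.07, Eif3s6-ps2 0.12, Eif3h -0.12, Eif3i -0.13, Eif2b1 -0.04, Eif5a2 0.02, Eif5a -0.10, Eif5 -0.17, Eif1ax -0.06 and Eif4g1 -0.05, and in KO mice Eif4b -0.01, Eif4h -0.12, Eif3i -0.03, Eif2b1 -0.02, Eif5a -0.14, Eif1ax -0.01 and Eif4g1 -0.17. Under 75th percentile scaling they were Eif4h -0.01, Eif3h -0.09, Eif3i -0.05, Eif2b1 -0.04, Eif5a -0.09, Eif5 -0.09 and Eif1ax -0.05 in control mice and Eif4h -0.03, Eif5a -0.04 and Eif4g1 -0.04 in KO mice. By edgeR Eif3s6-ps2 had 0.03 in control mice. Without 1 mouse each the control values ran from -0.99 to 0.07 for Eif3s6-ps2, -0.03 to 0.09 for Eif3h, -0.25 to 0.06 for Eif5a2, -0.03 to 0.05 for Eif5a, -0.04 to 0.09 for Eif5 and -0.0029 to 0.12 for Eif1ax, and the KO values from -0.02 to 0.05 for Eif5a and -0.03 to 0.04 for Eif4g1. At 1 to 27 reads per library the depth limits Eif3j2, as it does the pseudogenes.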

Other observations

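Eif3f spread from 315 to 1416 normalized counts over the 23 mice, 4.49-fold. Rps2, a ribosomal protein gene picked after its values were seen, spread from 165 to 1446, 8.77-fold, and in KO RT replicate 1 it stood at 954 where the other mice of that group were at most 347. The ratio of Eif3f to Rps2 ran only from 0.979 to 2.33, 2.38-fold. Whether this shared spread comes from the mice or from the libraries was not tested.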
